A study of Mus musculus with 6 samples.

Results

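The 10 immediate early transcription factor genes Fos, Fosb, Fosl1, Fosl2, Jun, Junb, Jund, Egr1, Atf3 and Ier2 were followed in endothelial cells isolated from mouse retinas. They were chosen by gene symbol, and all 10 were found among the 24421 genes of the count table. All pups received tamoxifen at postnatal day 1, their retinas were collected at postnatal day 7, and their strain background was mixed BL6/CD1. The 3 Smad4-iECKO libraries came from pups with floxed Smad4 and Cdh5-CreERT2, a Cre recombinase that tamoxifen activates and whose Cdh5 promoter is active in endothelial cells. The 3 Smad4f/f libraries came from pups with floxed Smad4 and no Cre. Smad4 encodes the mediator shared by BMP and TGF-beta signalling, and the comparison asked how transcripts differ after its deletion from the endothelium. The labels do not say whether a library came from 1 pup or from several, so the tests measure the spread between these libraries.

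Immediate early genes are transcribed within minutes of a stimulus, from factors already present in the cell, and their messenger RNAs are short-lived. Growth factors, calcium, mechanical strain, stress and the dissociation of tissue are all known to induce them. FOS and JUN proteins pair through leucine zippers to form the transcription factor AP-1. FOS proteins need a partner, whereas JUN proteins can also pair with each other. ATF3 is a stress-induced member of the same wider family, EGR1 is a zinc finger factor, and IER2 is a small nuclear protein induced alongside them. In vessels, AP-1 and EGR1 are known to respond to growth factors and to changes in blood flow.

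RefSeq promoter windows (GRCm38.p6, 250 bases before to 50 after the transcription start) were held for 7 of the 10 genes. The 4 shown are those of Fos and Fosb, which had the widest range of levels between libraries, and of Jun and Junb, which shared a peak in a single library. They are written 5′ to 3′ on the strand of the gene. Capitals mark TGACG, the core of the cyclic AMP response element, TGACATCA, an AP-1-like element, and TATAA. The windows are chr12:85473640-85473939 (plus strand) for Fos, chr7:19309996-19310295 (minus strand) for Fosb, chr4:95052173-95052472 (minus strand) for Jun and chr8:84978699-84978998 (minus strand) for Junb.
Fos: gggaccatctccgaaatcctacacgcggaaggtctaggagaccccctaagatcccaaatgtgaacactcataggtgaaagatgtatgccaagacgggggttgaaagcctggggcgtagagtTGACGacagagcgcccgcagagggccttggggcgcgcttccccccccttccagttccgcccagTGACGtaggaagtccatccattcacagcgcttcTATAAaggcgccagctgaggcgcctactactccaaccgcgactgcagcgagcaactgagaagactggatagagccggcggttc
Fosb: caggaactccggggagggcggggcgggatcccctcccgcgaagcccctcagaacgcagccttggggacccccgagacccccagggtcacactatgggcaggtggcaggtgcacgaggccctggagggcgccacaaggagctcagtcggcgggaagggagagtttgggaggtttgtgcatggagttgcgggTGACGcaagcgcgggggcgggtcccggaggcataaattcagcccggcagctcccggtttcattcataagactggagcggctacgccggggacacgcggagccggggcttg
Jun: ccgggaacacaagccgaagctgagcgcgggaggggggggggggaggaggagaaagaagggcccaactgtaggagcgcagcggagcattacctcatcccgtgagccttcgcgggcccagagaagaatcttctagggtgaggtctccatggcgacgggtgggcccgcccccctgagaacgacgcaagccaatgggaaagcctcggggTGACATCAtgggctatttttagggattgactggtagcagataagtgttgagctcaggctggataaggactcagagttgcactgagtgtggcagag
Junb: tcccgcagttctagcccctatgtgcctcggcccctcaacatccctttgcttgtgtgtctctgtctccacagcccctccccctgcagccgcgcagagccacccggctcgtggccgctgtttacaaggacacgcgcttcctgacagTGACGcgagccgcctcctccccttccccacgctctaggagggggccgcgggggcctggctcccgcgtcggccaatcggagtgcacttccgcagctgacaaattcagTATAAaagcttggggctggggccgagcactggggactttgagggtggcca
On either strand, TGACG was found in the windows of 4 of the 7 genes (Fos, Fosb, Junb and Atf3) and in 20.81% of all 32851 windows. Fos held it at -129 to -125 and at -66 to -62 from its start, Fosb at -60 to -56 and Junb at -106 to -102. TGACATCA was found in Jun alone of the 7, at -45 to -38, and in 3.62% of all windows. TATAA was found in Fos at -33 to -29 and in Junb at 1 to 5, and in 24.87% of all windows. GENCODE M21 places the outermost start of Fos and Jun at the same base, that of Fosb close to it and that of Junb 30 bases downstream, past its TATAA. For the other windows it lies 1210 bases downstream in Jund, whose window ends before it, and upstream in Fosl2 and Atf3. The full element TGACGTCA (1.79% of all windows), the AP-1 site TGANTCA (7.81%) and the CArG box bound by SRF (1.63%) were found in 0 of the 7. Sequence further than 250 bases before the start was not searched, so sites there would be missed. GGGCGG, the core of the SP1 site, was found in 5 of the 7 and in 35.66% of all windows. A match describes letters in these windows and is not a measured binding site.

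Total counts ran from 12633018 to 23164952 in 5 libraries and came to 2233360 in Smad4-iECKO replicate 2. This library stood apart. Its log2 CPM (counts scaled to the library total) correlated across genes at 0.79 to 0.829 with those of the other libraries, which correlated at 0.898 to 0.972 with each other; genes are not independent replicates. Titles of both replicates numbered 2 begin with Lit40 and those of the other 4 with Lit38, called prefix 40 and prefix 38 here. Transcripts of 25 endothelial identity genes took 0.204% to 1.02% of counts and those of 17 rod genes 0.928% to 1.95%, so all libraries also held RNA of the neural retina. In such bulk samples, fewer cells of a type and less RNA per cell cannot be told apart.

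None of the 10 genes passed the test for a difference between Smad4-iECKO and Smad4f/f. Of 9 genes tested by edgeR's quasi-likelihood test, 0 had a Benjamini-Hochberg adjusted p under 0.05 (each adjusted p = 0.9998), and 0 had an unadjusted p under 0.05. DESeq2 and limma-voom also called 0 of the members, and 0 reached an unadjusted p under 0.05 with either. Limma-voom with quality weights called 0 as well, with Fosb at an unadjusted p of 0.0484 (782 of 14362 genes were under 0.05 there). The background was 0% of 14362 genes called by edgeR (1.55% at an unadjusted p under 0.05) and 0.0705% by DESeq2. Log2 fold changes were positive for 7 of the 9 (median 0.63), where 49.0% of all tested genes were positive (median -0.01). Without Smad4-iECKO replicate 2, 5 of the 9 were positive and the median was 0.08.

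**Figure D1:**
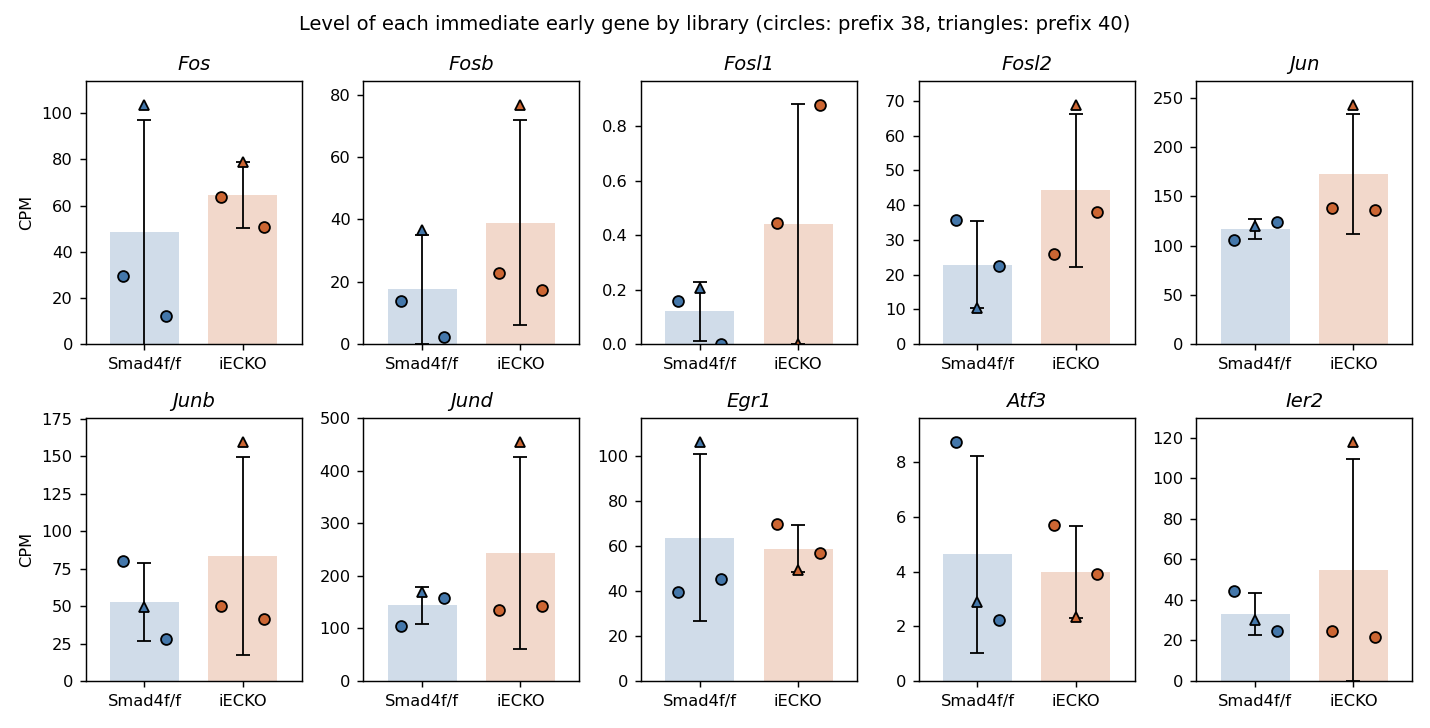
Level of each of the 10 genes as CPM (linear axes from 0) in the 3 Smad4f/f (blue) and 3 Smad4-iECKO (orange) libraries. Bars are means, error bars the SD (n = 3), circles prefix 38 and triangles prefix 40. For 6 genes the highest point is the Smad4-iECKO triangle, and for Fos and Egr1 it is the Smad4f/f triangle.

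Fos, the founding AP-1 subunit, varied more among the Smad4f/f than among the Smad4-iECKO libraries. Its level was 29.49, 103.5 and 12.04 CPM in the Smad4f/f libraries (replicates 1, 2 and 3, the order used throughout). The Smad4-iECKO libraries had 63.59, 79.02 and 50.63 CPM. The Smad4-iECKO levels lay between the lowest and the highest Smad4f/f level, so the groups overlapped. Smad4f/f averaged 48.34 ± 48.55 CPM and Smad4-iECKO 64.41 ± 14.21 CPM (SD, n = 3). The log2 fold change was 0.40 ± 0.63 (standard error, as for all log2 fold changes given with ±; edgeR, unadjusted p = 0.547). Without Smad4f/f replicate 2 it was 1.62 (unadjusted p = 0.00587, edgeR adjusted p = 1.0), and with Smad4f/f replicate 3 left out it was -0.07.

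Fosb, a FOS paralogue that shares JUN partners with it, had the widest range of the 9 tested genes, 34.2-fold from the lowest to the highest library. It was at 13.88, 36.54 and 2.244 CPM in Smad4f/f. In Smad4-iECKO it was at 22.88, 76.7 and 17.38 CPM. Smad4f/f replicate 2 exceeded 2 of the 3 Smad4-iECKO libraries. The log2 fold change was 1.05 ± 0.84 (edgeR, unadjusted p = 0.241). It was 0.14 without Smad4-iECKO replicate 2. Leaving out a Smad4f/f library gave 0.54 (replicate 3), 2.18 (replicate 2) or 0.87 (replicate 1).

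Fosl2 encodes FRA2, a FOS protein with no transactivation domain of the FOS kind. Its level was 35.64, 10.49 and 22.44 CPM in Smad4f/f and 25.94, 68.79 and 37.95 CPM in Smad4-iECKO. Both the lowest and the highest value were those of the prefix 40 libraries, so Fosl2 ran opposite to Fos in Smad4f/f replicate 2. The log2 fold change was 0.92 ± 0.50 (edgeR, unadjusted p = 0.10), and 0.47 without Smad4-iECKO replicate 2. Fosl1, which encodes the related FRA1, was close to absent. It held 2, 5 and 0 reads in Smad4f/f and 8, 0 and 11 reads in Smad4-iECKO, and it did not pass the filter on low counts. A count of 3 corresponds to 0.123 to 0.239 CPM in 5 libraries and to 1.39 CPM in Smad4-iECKO replicate 2, so the 0 reads there allow a level up to 1.39 CPM, for counting error only.

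Jun, the core JUN partner of FOS, was the 1 member of the 9 whose groups did not overlap. It was at 105.2, 120.2 and 124.2 CPM in Smad4f/f and at 138.3, 242.6 and 136.3 CPM in Smad4-iECKO. Every Smad4-iECKO library was above every Smad4f/f library, a pattern found for 2.49% of all tested genes. The reverse was found for 0 of the 9 members and for 2.83% of all tested genes. The lowest Smad4-iECKO and the highest Smad4f/f value were 136.3 and 124.2 CPM. Smad4f/f averaged 116.5 ± 10.01 CPM and Smad4-iECKO 172.4 ± 60.83 CPM. The log2 fold change was 0.56 ± 0.31 (edgeR, unadjusted p = 0.106). It was 0.21 without Smad4-iECKO replicate 2, with a standard error of 0.19. Its 3189 exonic bases overlap those of Junos, on the opposite strand, over 232 bases.

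Junb and Jund encode the other JUN proteins, JUNB being known as a weaker activator than JUN and JUND as the broadly expressed member. Junb was at 80.27, 49.55 and 28.13 CPM in Smad4f/f and 49.93, 159.9 and 41.38 CPM in Smad4-iECKO. Jund was at 104.1, 170.0 and 157.9 CPM in Smad4f/f and 134.9, 455.1 and 141.8 CPM in Smad4-iECKO. In both, Smad4-iECKO replicate 2 was alone at the top and the other Smad4-iECKO libraries lay within the Smad4f/f range. The log2 fold changes were 0.63 for Junb (standard error 0.55, edgeR, unadjusted p = 0.281) and 0.75 for Jund (standard error 0.48, edgeR, unadjusted p = 0.152). Without Smad4-iECKO replicate 2 they turned negative, at -0.23 and -0.09. On the opposite strand, Prdx2 overlaps Junb over 173 of 2301 exonic bases and the antisense gene Gm11175 overlaps Jund over 877 of 1668. The labels do not state strand-aware counting, so reads of such pairs cannot be told apart.

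Ier2 behaved like Junb. It was at 44.31, 30.0 and 24.54 CPM in Smad4f/f and 24.83, 118.1 and 21.85 CPM in Smad4-iECKO. Smad4-iECKO replicate 2 held the highest level, and Smad4-iECKO replicate 3 the lowest. The log2 fold change was 0.66 ± 0.61 (edgeR, unadjusted p = 0.303), and -0.52 without Smad4-iECKO replicate 2. Ier2 and Junb lie on the same strand of chromosome 8, 311632 bases apart.

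Egr1 had almost the same mean in both groups. It was at 39.5, 106.3 and 45.19 CPM in Smad4f/f and 69.87, 49.27 and 56.77 CPM in Smad4-iECKO. As for Fos, Smad4f/f replicate 2 was the highest library and the other Smad4f/f libraries were the lowest. Smad4f/f averaged 63.66 ± 37.03 CPM and Smad4-iECKO 58.64 ± 10.43 CPM. The log2 fold change was -0.11 ± 0.40 (edgeR, unadjusted p = 0.786), and 0.48 without Smad4f/f replicate 2. Atf3 was lower than Egr1 in every library, at 8.752, 2.881 and 2.244 CPM in Smad4f/f and 5.721, 2.324 and 3.907 CPM in Smad4-iECKO. Smad4f/f replicate 1 held its highest level. The value of Smad4-iECKO replicate 2 rests on 5 reads, and the log2 fold change was -0.04 ± 0.62 (edgeR, unadjusted p = 0.946). It was 0.77 without Smad4f/f replicate 1. Leaving out a Smad4-iECKO library gave 0.08 (replicate 2), 0.06 (replicate 3) or -0.40 (replicate 1).

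The genes peaked in different libraries, and both replicates numbered 2 held most of the peaks. Smad4-iECKO replicate 2 was the highest library for 6 of the 9 genes (Fosb, Fosl2, Jun, Junb, Jund and Ier2), and for 31.0% of all tested genes. Smad4f/f replicate 2 was the highest for Fos and Egr1, and for 12.9% of all tested genes. Smad4f/f replicate 3 was the lowest for 4 of the 9 (Fos, Fosb, Junb and Atf3), where Fosb stood at -2.94 and Fos at -1.92 log2 units from its own mean over the 6 libraries. Fos, Fosb and Jund were higher in both prefix 40 libraries than in any of the 4 prefix 38 libraries, a pattern found for 8.16% of all tested genes.

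**Figure D2:**
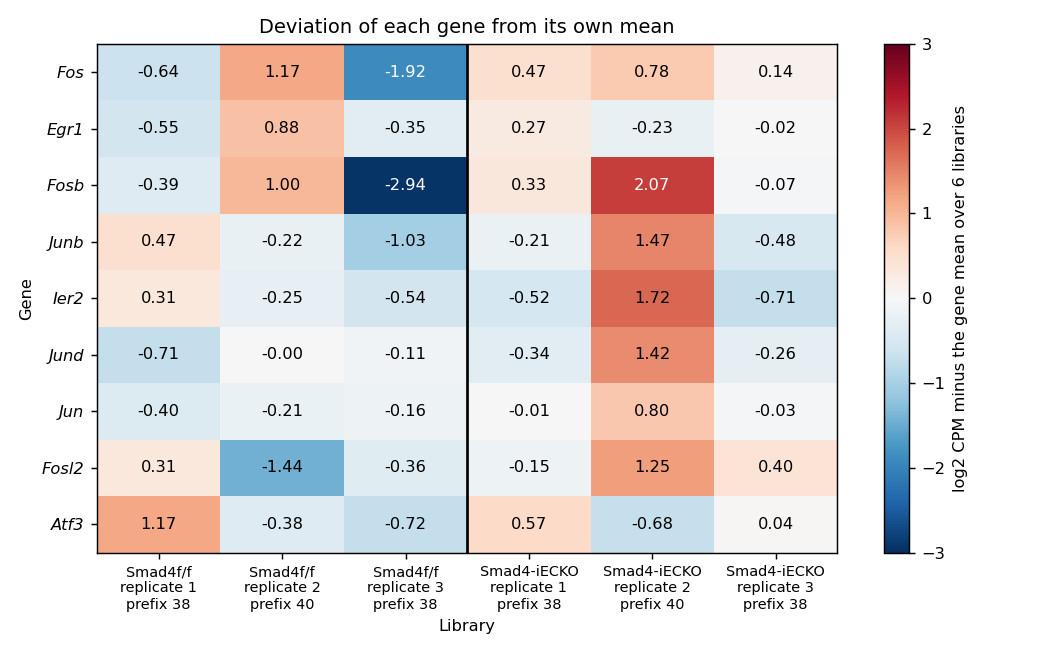
Each of the 9 tested genes (rows) in each library (columns), as log2 CPM minus the mean of that gene over the 6 libraries. Red is above and blue below that mean. Fos (1.17) and Egr1 (0.88) are highest in Smad4f/f replicate 2, and Fosb (2.07), Ier2 (1.72), Junb (1.47) and Jund (1.42) in Smad4-iECKO replicate 2.

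Within the title prefixes the signs of the log2 fold changes differed between members. In the prefix 38 libraries 0 of the 9 were called by edgeR (1 at an unadjusted p under 0.05). Over all 14600 genes of that fit 0 were called, and 645 had an unadjusted p under 0.05. In the 4 prefix 38 libraries, Fos was at 29.49 and 12.04 CPM in Smad4f/f against 63.59 and 50.63 CPM in Smad4-iECKO, a log2 fold change of 1.44 (standard error 0.43, unadjusted p = 0.0108, edgeR adjusted p = 0.995). Both Smad4-iECKO libraries were above both Smad4f/f libraries there for 4 of the 9 genes (Fos, Fosb, Jun and Egr1), and for 16.2% of all tested genes. Both were below for 0 of the 9, and for 14.9% of all tested genes. Fosb had a log2 fold change of 1.31 and Egr1 of 0.57, while those of Ier2 (-0.58) and Junb (-0.27) were negative, none of them called. In the prefix 40 pair, with 1 library per group and no test, the signs were the other way round for all of these except Fosb. Smad4-iECKO over Smad4f/f there, as a log2 ratio, was -0.39 for Fos, -1.11 for Egr1, 1.07 for Fosb, 1.97 for Ier2 and 1.69 for Junb. The positive log2 fold change of Fosl2 over all libraries came mainly from this pair, at 2.70 against 0.12 in the prefix 38 libraries. For Jund the values were 1.42 and 0.07, and for Jun 1.01 and 0.25. The values for Fos, Egr1, Junb and Ier2 thus did not hold their sign within both prefixes.

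**Figure D3:**
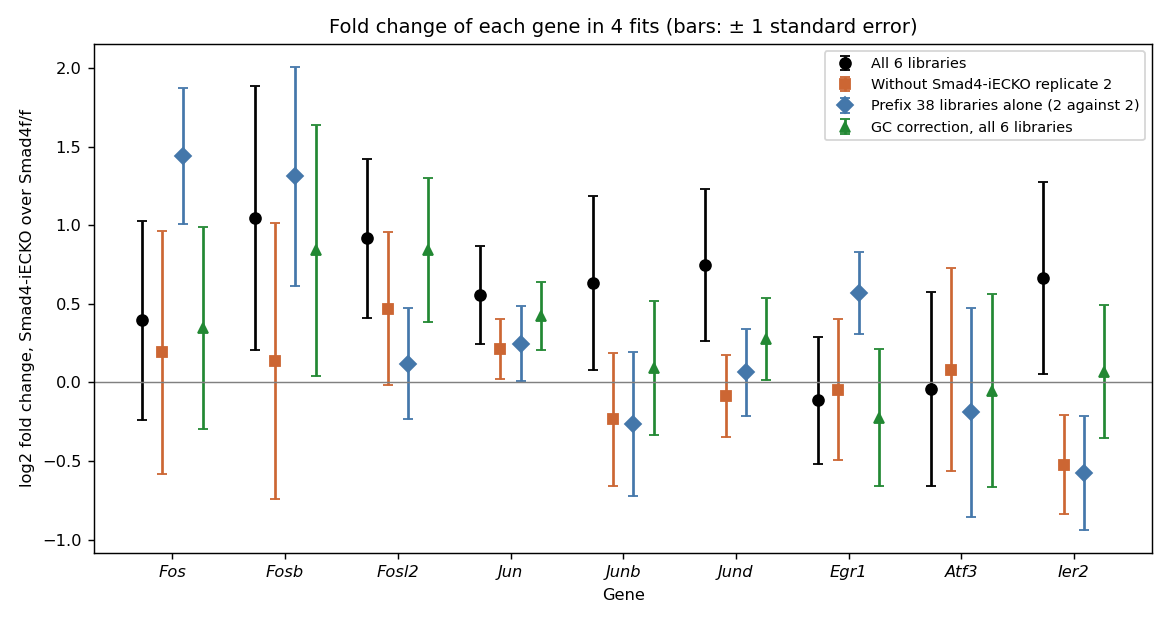
Log2 fold change of Smad4-iECKO over Smad4f/f for the 9 tested genes in 4 edgeR fits, with bars of 1 standard error to each side. Black uses all 6 libraries, orange leaves out Smad4-iECKO replicate 2, blue uses the prefix 38 libraries alone and green corrects for GC content. Ier2 goes from 0.66 with all libraries to -0.52 without Smad4-iECKO replicate 2, and Fos is at 1.44 in the prefix 38 libraries.

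The members that peaked in Smad4-iECKO replicate 2 include those with the most GC-rich transcripts, and that library differed from the others by GC content. Among 13263 coding genes, the fifth with the highest GC content (56.1% or more) lay a median 0.79 log2 units above the mean of the other 5 libraries in Smad4-iECKO replicate 2. The fifth with the lowest (44.4% or less) lay at -1.20. In the other libraries these medians ran from -0.19 to 0.04 and from 0.16 to 0.35. GC content was 67.1% for Jund, 62.6% for Junb and 60.9% for Ier2, which stood 1.70, 1.76 and 2.06 log2 units above the other libraries there. Egr1, at 57.3%, stood at -0.27, and Fosb, at 56.0%, at 2.48. The part of GC content in the members' levels was not tested beyond the correction described next. Jun, Jund and Ier2 have a single exon, and the median over 303 single-exon genes in this library was 0.15.

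A fit that corrected each library for GC content, chosen after seeing the data, lowered the log2 fold changes of these members. Junb went from 0.63 to 0.09, Ier2 from 0.66 to 0.07 and Jund from 0.75 to 0.27. Jun went from 0.56 to 0.42 ± 0.22 (edgeR, unadjusted p = 0.0832), and its groups still did not overlap. Fosl2 was at 0.84, Fosb at 0.84 and Fos at 0.35 after the correction, with Fosb still 1.73 above its mean in Smad4-iECKO replicate 2 and Fosl2 1.1. No member was called, with adjusted p = 0.999 in edgeR for each, and 0 had an unadjusted p under 0.05.

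**Figure D4:**
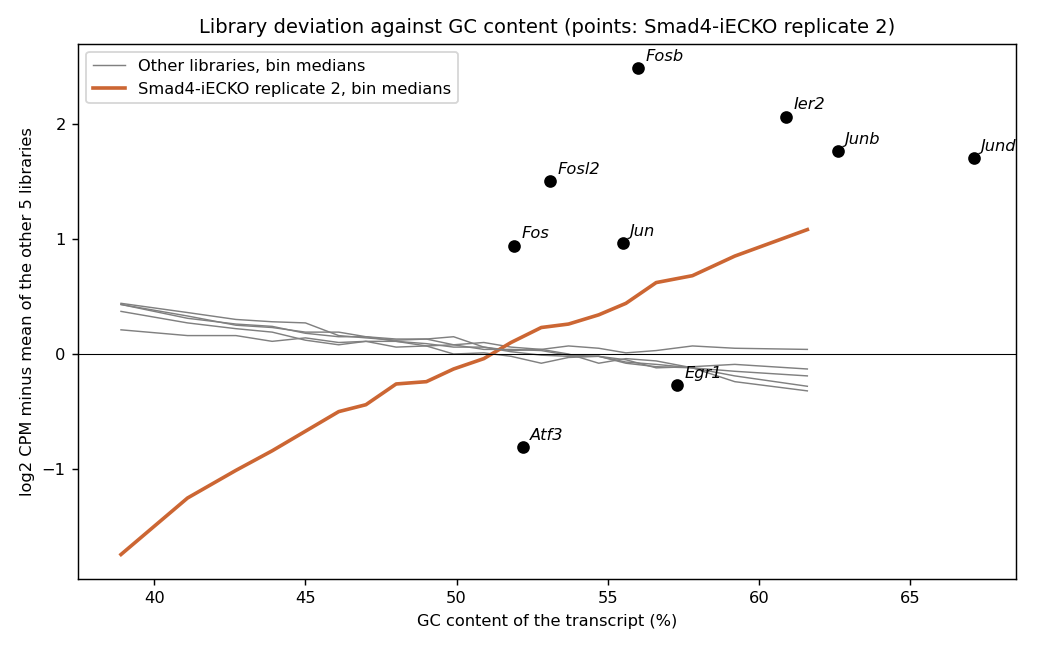
Median deviation of a library from the mean of the other 5 (log2 CPM, vertical axis) in 20 bins of coding genes ordered by transcript GC content (horizontal axis, percent). The orange line is Smad4-iECKO replicate 2, the grey lines the other libraries, and the points the 9 tested genes in Smad4-iECKO replicate 2. The orange line reaches 1.08 in the most GC-rich bin (median GC content 61.6%), and Ier2 (2.06) lies above it. Junb (1.76) and Jund (1.70) are higher than 1.08 but lie beyond the end of the line, at higher GC content.

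Endothelial content differed between libraries too, and the levels relative to it gave a different order. The mean log2 CPM of the endothelial identity list was 7.95, 5.42 and 6.98 in the Smad4f/f libraries, against 6.24, 6.91 and 6.91 in the Smad4-iECKO ones. Smad4f/f replicate 2, the library with the highest Fos and Egr1, thus held the lowest endothelial level and 1.95% of its counts in rod genes. Its retinal neuron list took 0.238% of counts, against 0.12% to 0.216% in the others. The part of other cell types in the Fos and Egr1 levels was not tested. With each gene set against the endothelial mean in its own library, Fosl2 was the only 1 of the 9 whose groups did not overlap, a pattern with Smad4-iECKO above that 2.34% of all tested genes showed on this scale. It was at -2.79, -2.01 and -2.48 in Smad4f/f and at -1.54, -0.80 and -1.65 in Smad4-iECKO (log2). An exact permutation test (two-sided) gave p = 0.1, which 3 libraries against 3 cannot go below. For the other 8 genes p ran from 0.5 to 0.9. Among them, Jun overlapped on this scale, at -1.23, 1.49 and -0.02 against 0.87, 1.02 and 0.19.

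Microglia express these genes as well. The 18 genes of the microglia and macrophage list took 0.00724% to 0.0142% of counts in the Smad4f/f libraries, against 0.0129% to 0.0198% in the Smad4-iECKO ones, with 0 of the 18 absent from every library. Log2 fold changes were positive for 16 of these 18 genes (median 0.72), where 49.0% of all tested genes were positive. Of the 18, 6 were higher in every Smad4-iECKO library, a pattern of 2.49% of all tested genes. By edgeR 0 were called and 3 had an unadjusted p under 0.05, beside 0% and 1.55% of all tested genes. Fibroblast genes took 0.0144% to 0.0607% in Smad4f/f and 0.0347% to 0.0838% in Smad4-iECKO, highest in Smad4-iECKO replicate 2, and 2 of the 13 were at 0 in every library. Pericyte and smooth muscle genes took 0.0699% to 0.305% and 0.121% to 0.208%. Mueller glia and astrocyte genes took 0.143% to 0.282% and 0.173% to 0.265%. Erythroid genes took at most 0.00523%, and 6 of the 9 in the table were at 0 in every library. The part of these cells in the members' levels was not tested.

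The spread within groups was large for most of the 9 genes beside other genes of these libraries. The SD of log2 CPM within groups was above the median of all tested genes (0.54) for 8 of the 9, and above the upper quartile (0.849) for Fos, Fosb, Junb and Ier2. Fosb, at 1.63, stood at percentile 93.3, Fos (1.12) at 85.8, Ier2 (1.00) at 82.2 and Junb (0.92) at 78.6. Jun, at 0.35, stood at percentile 24.7 and was the exception. For Fos the spread lay in Smad4f/f (SD 1.55, against 0.32 in Smad4-iECKO), and for Ier2 in Smad4-iECKO (1.35, against 0.43).

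Per kilobase of exon, Jund was the most abundant of the 10 genes, at 116.0 ± 77.9 CPM per kilobase (SD over the 6 libraries). Jun followed at 45.3 ± 15.5, then Junb at 29.6 ± 20.9, Ier2 at 28.9 ± 24.4, Fos at 24.0 ± 14.1 and Egr1 at 13.6 ± 5.46. Fosb (4.53 ± 4.20), Fosl2 (3.47 ± 2.06) and Atf3 (2.0 ± 1.18) were lower, and Fosl1 was at 0.138 ± 0.165. The ranges of mean ± SD overlapped between each gene and the next in this order, except between Atf3 and Fosl1. Differences between genes within the same libraries were not tested. Jund was the highest in all 6 libraries, while Fos exceeded Jun per kilobase in Smad4f/f replicate 2 only, at 44.0 against 37.7.

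Nr4a1, another immediate early gene and an orphan nuclear receptor, had the highest Pearson's r of 14353 genes with the mean profile of the 9 genes. Its level was 17.6, 18.3 and 9.5 CPM in Smad4f/f and 16.9, 30.2 and 14.4 CPM in Smad4-iECKO. Like the members' mean, it was lowest in Smad4f/f replicate 3 and highest in Smad4-iECKO replicate 2. Its likeness to the mean of the members' centred log2 CPM was 0.989 as Pearson's r over the 6 libraries and 0.943 as Spearman's rho, given as a description. The next were 2210406O10Rik (r = 0.985), Lrrc9 (0.981), Ccdc176 (0.98) and Tcf25 (0.979), and 177 genes had a likeness over 0.9. By Spearman's rho, Lrrc9 was closer than Nr4a1, at 1.0. Tcf25 followed the profile in shape only, between 239.0 and 297.0 CPM. The profile described the members unequally. Pearson's r of a member with the mean of the other members was -0.16 for Atf3, 0.0312 for Egr1 and 0.373 for Fosl2. For the rest it ran from 0.605 (Jund) to 0.897 (Fosb).

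Pathway lists were counted beside the members' median of 0.63 (0.08 without Smad4-iECKO replicate 2), and the difference between lists was not tested. Of 26 tested AP-1 partners and repressors, such as the small MAF proteins, 13 were positive and 13 negative (median 0.00, and 0.05 without that library). Of 32 tested genes listed as other immediate early transcription factors, 16 were positive and 16 negative (median 0.00). That list was drawn broadly, beyond immediate early factors, and also held Id1, Id2, Id3, Sox9, Stat3 and Mcl1. Of 38 other immediate early genes, 16 were positive (median -0.03), and of 44 upstream kinases and regulators, 16 (median -0.08). Of 46 heat shock and dissociation genes, 18 were positive (median -0.11). In all of these lists 0 genes were called in either direction by edgeR, with 1, 3 and 3 genes at an unadjusted p under 0.05 in the other transcription factor, other immediate early and heat shock lists and 0 in the remaining ones. All medians stand beside -0.01 for all 14362 genes.

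In the other immediate early list, Ctgf and Cyr61 encode matricellular proteins and Dusp1 a phosphatase that switches off MAP kinases. Dusp1 was at 19.7, 29.6 and 17.3 CPM in Smad4f/f and 26.7, 107.0 and 50.9 CPM in Smad4-iECKO, with Smad4-iECKO replicate 2 again the highest and replicate 1 within the Smad4f/f range. Its log2 fold change was 1.43 (standard error 0.49, unadjusted p = 0.0162), and 0.77 without that library. Ctgf was at 70.9, 21.2 and 20.7 against 67.2, 119.0 and 133.0 CPM. Cyr61 was at 26.3, 13.3 and 7.86 against 27.7, 42.3 and 34.1 CPM, with no overlap. Of the 38 tested genes of that list, 2 were higher in every Smad4-iECKO library, a pattern of 2.49% of all tested genes. The log2 fold changes of Ctgf and Cyr61 were 1.5 and 1.12, and each had an edgeR adjusted p of 1.0.

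Targets of AP-1 and EGR1 had a median log2 fold change of 0.64, with 27 of 30 tested genes positive, and 0.38 without Smad4-iECKO replicate 2 (24 of 30). None was called by edgeR. An unadjusted p under 0.05 was reached by 6, and 5 of the 30 were higher in every Smad4-iECKO library, where 2.49% of all tested genes were. Among those 5, Cdkn1a (p21, an inhibitor of cyclin-dependent kinases) averaged 12.65 ± 3.964 CPM in Smad4f/f and 52.87 ± 25.77 CPM in Smad4-iECKO, and DESeq2 called it (adjusted p = 0.0276). The DESeq2 call was lost without Smad4f/f replicate 2 (adjusted p = 0.214) or 3 (0.685) and without Smad4-iECKO replicate 2 (0.134) or 3 (0.383). Vegfa, the endothelial growth factor, was at 185.0, 136.0 and 148.0 CPM in Smad4f/f and 352.0, 364.0 and 239.0 CPM in Smad4-iECKO. Spp1, which encodes the secreted protein osteopontin and had the next smallest p, was at 0.165 to 0.946 CPM in Smad4f/f and at 2.72, 0 and 6.14 CPM in Smad4-iECKO. The 0 reads of Smad4-iECKO replicate 2 allow up to 1.39 CPM, so whether its groups overlapped was not detectable at this depth. Each of these genes also answers to other factors than AP-1.

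**Figure D5:**
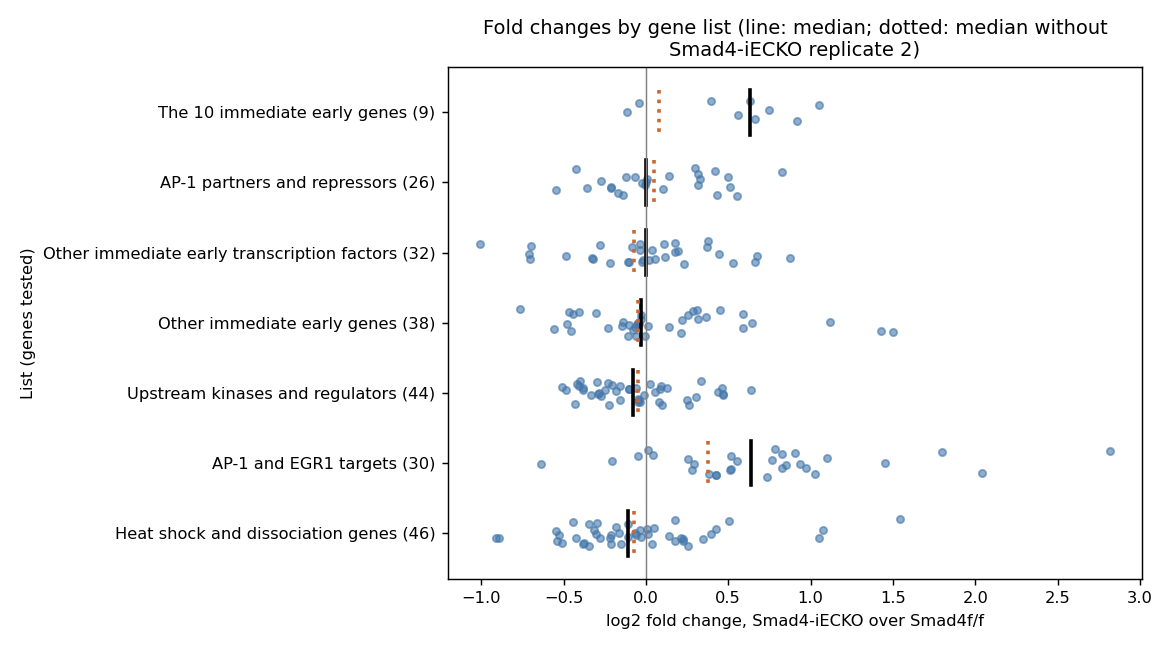
Log2 fold change of Smad4-iECKO over Smad4f/f for each tested gene (points) of the members and of 6 lists, with the number of genes tested in brackets. Black lines are medians over all libraries and dotted orange lines medians without Smad4-iECKO replicate 2. The median of the members falls from 0.63 to 0.08 when that library is left out, and that of AP-1 and EGR1 targets from 0.64 to 0.38.

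Among the heat shock and dissociation genes, Hspb8, a small heat shock protein gene, was at 5.117 ± 3.98 against 15.05 ± 3.823 CPM, higher in every Smad4-iECKO library. Slc38a2, an amino acid transporter, was at 566.8 ± 134.4 against 301.2 ± 71.05 CPM, lower in every Smad4-iECKO library (edgeR, unadjusted p = 0.0233, not called). In the remaining lists the smallest p belonged to Maf (log2 fold change 0.51, unadjusted p = 0.154 in edgeR) among AP-1 partners and repressors, followed by Mafg (0.56) and Nfe2l2 (-0.55). Tsc22d1 (-1.01, unadjusted p = 0.0499) led the other transcription factors in edgeR, followed by Sox9 (0.67) and Bhlhe40 (0.87). Map2k1 (0.44, unadjusted p = 0.203 in edgeR) led the upstream kinases, followed by Map2k3 (0.47) and Mapk11 (0.64).

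For this comparison, the authors' deposited table called 13.4% of 14225 genes, and among the members Jun and Fosl2. In the authors' deposited table, Jun had a log2 fold change of 0.54 (adjusted p = 0.00405) and Fosl2 one of 0.79 (adjusted p = 0.0224). The authors' deposited table gave no adjusted p for Fosl1, and adjusted p of 0.0700 to 0.804 for the other members. The count table held each sample in 3 identical columns. When DESeq2 was run with all 18 columns as if they were samples, 12.1% of genes were called, among them Jun (DESeq2 adjusted p = 0.00438), Fosl2 (0.0236) and Fosl1 (0.0184). With 1 column per sample, DESeq2 called 0 of the 10 members.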

How the data were processed

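Bulk RNA-seq of 6 libraries was deposited by the authors as 1 table of raw counts per gene, whole numbers in 18 columns, and 1 table of their comparison. Per the file headers, the comparison table holds a mean normalized signal, log2 fold changes, the test's score, and raw and adjusted p-values. STAR, DESeq2 and mm10 are named in the submitters' processing notes. No counter or annotation is named there (not given in the sources used here). TruSeq RNA v2 libraries are named in the labels' protocols.

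All 3 columns of a sample were identical and were used once. Groups were compared in R 4.3.3 by the quasi-likelihood test of edgeR 4.0.16 (TMM scaling, filterByExpr with minimum count 10 and minimum total 15, no covariate) with Benjamini-Hochberg adjustment over 14362 genes and a threshold of 0.05. CPM were TMM-scaled. Log2 CPM used a prior count of 2. The standard error was the log2 fold change over the square root of F. DESeq2 1.42.0, limma 3.58.1 and other alternatives were run, and the fits were tested on simulated data. Replicate numbers follow accession order and pair nothing. Coordinates, exons and transcript GC content came from GENCODE M21 (mm10), and promoters from RefSeq. The GC correction used median deviations in 20 bins as offsets. Symbols of 378 list entries matched directly, 1 by synonym and 2 not at all. Genes named beside the members were the 3 with the smallest p of each pathway list, of which 1 is not reported here. The members and lists were chosen with earlier results of these data known. Figures used matplotlib 3.10.9.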

Additional observations from a re-analysis of the deposited data

How the results depend on the processing

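Over 23 other settings and 7 more chosen after seeing the data, 238 of 269 log2 fold changes of the members kept their sign and stayed uncalled. Widening the adjusted p threshold to 0.1 was among the 23. It reused the log2 fold changes of the main fit, so their signs were fixed there. Fosb, Fosl2 and Jun kept a positive sign under all alternatives run. Scaling to the endothelial list, which moved the median of all genes to -0.172, gave -0.48 for Fos, -0.68 for Egr1 and 0.35 for Atf3, where the mean difference of log2 CPM relative to the same list was 1.02 for Fos and 0.11 for Egr1. Limma-voom gave 0.05 for Egr1, 0.29 for Atf3 and -0.04 for Ier2, and with quality weights 0.20, 0.84 and -0.18, with -0.10 for Jund. The title prefix as a block gave 0.05 for Egr1 and an endothelial covariate 0.18 for Atf3. In edgeR, Fosb reached an unadjusted p of 0.047 with that block, where 359 of 14362 genes were under 0.05. Fosl2 reached 0.0117 with that covariate (411 of 14362). Without Smad4f/f replicate 1, Fosl2 was at an unadjusted edgeR p of 0.0334 (376 of 14695). Without Smad4f/f replicate 2, Fosb was at 0.0221 (438 of 14738). No member was called in these fits. Prefix 38 alone gave -0.27 for Junb, 0.57 for Egr1 and -0.58 for Ier2. Leaving out 1 library gave -0.07 to 1.62 for Fos, 0.14 to 2.18 for Fosb, 0.47 to 1.38 for Fosl2, 0.21 to 0.69 for Jun, -0.23 to 1.05 for Junb, -0.09 to 1.03 for Jund, -0.37 to 0.48 for Egr1, -0.40 to 0.77 for Atf3 and -0.52 to 1.06 for Ier2. DESeq2 without 1 library gave -0.06 to 1.65 for Fos, -0.22 to 1.09 for Junb, -0.07 to 1.07 for Jund, -0.38 to 0.49 for Egr1, -0.51 to 0.69 for Atf3 (0.06 without Smad4-iECKO replicate 2) and -0.51 to 1.12 for Ier2. DESeq2 on all 18 columns called 3 members (Fosl2 at 0.95, Jun at 0.57, and Fosl1) and 2235 genes in all, counting each sample 3 times. Genes called in all numbered 4 with no filter, 12 with DESeq2 (4 to 35 without 1 library, with 16 and 10 without Smad4f/f replicate 2 and Smad4-iECKO replicate 2), 8 with quality weights and 1 with the title prefix as a block. Atf3 could not be fitted after thinning to the smallest library, where it did not pass the filter. Beyond the 18-column fit, the cause of these changes was not tested.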
